A study of Rattus norvegicus with 3 samples.

Results

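The cytosolic ribosomal protein genes of the rat were followed through the cell classes of the nucleus accumbens and through 3 groups of rats. They were chosen by symbol: Rpl or Rps followed by a digit, Rplp0 to Rplp2 and Rpsa, without the Rps6 kinases, Rps19bp1 and names that contain -ps, which mark pseudogenes. The rule reads the symbol alone and gave 95 of the 23098 features, on 90 different symbols, of which 5 sit on 2 identifiers each. By role, 40 features encode proteins of the large subunit, 31 of the small subunit and 3 of the stalk, and 21 carry the symbol of a paralog.

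The samples were nuclei from accumbens punches of outbred Wistar rats at 16 weeks of age, sorted by behaviour in the elevated plus maze and in the open field and with an unfamiliar object. The first library came from low anxiety rats without treatment, the second from high anxiety rats without treatment, and the third from high anxiety rats given urolithin A, a gut-derived metabolite of plant ellagitannins, for 2 months. Each library pooled 5 hemispheres, so a group is 1 library with no replicate, and the spread between rats cannot be seen. How many rats the hemispheres came from, and the dose of urolithin A, are not given in the sources used here.

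A cytosolic ribosome consists of a small subunit, which reads the mRNA, and a large subunit, which joins amino acids and carries a flexible stalk that recruits translation factors. Cells make the proteins of both subunits in matched amounts, and their mRNAs often begin with a run of pyrimidines, the 5′ terminal oligopyrimidine tract, through which nutrient signalling by mTOR and Larp1 sets their translation. Oligodendrocytes wrap axons in myelin and make large amounts of membrane and protein. Medium spiny neurons are the projection neurons of the accumbens and are told apart by the dopamine receptor D1 or D2. A nucleus holds mRNA on its way out rather than the translated pool. The values below are transcript levels in preparations of nuclei, which also held transcripts of the mitochondrial genome. The part of cytoplasmic RNA in them was not tested.

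The tract is the sequence feature that these genes are known for, so starts of members that the results turn on are shown first. Each line gives 30 bases around the RefSeq transcription start on the gene's own strand, 5′ to 3′, with 15 bases before the start, from the RefSeq promoters of build GRCr8. Capitals mark a tract, here a C within 5 bases of the start followed by at least 5 bases that are each C or T. Rps7, Rps3a, Rpl37 and Rplp1 are among the members that differ most between classes or groups, and Rpl31, Rpl35a and Rpl22 are members that were not higher in oligodendrocytes.
Rps7, chr6:50999431-50999460, minus strand: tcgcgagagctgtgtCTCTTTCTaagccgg
Rps3a, chr2:173827028-173827057, minus strand: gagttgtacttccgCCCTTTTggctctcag
Rpl37, chr2:55942930-55942959, plus strand: tggtaggcgtaCTTTCTCTTCCggtctctt
Rplp1, chr8:71290858-71290887, minus strand: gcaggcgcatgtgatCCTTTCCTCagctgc
Rpl31, chr9:49143096-49143125, plus strand: ccacaatccctcgcgCCTTTCCTTTCCaac
Rpl35a, chr11:81235007-81235036, minus strand: gcgggtcttgCCTTCCTCTTTCCgccatct
Rpl22, chr5:168117946-168117975, plus strand: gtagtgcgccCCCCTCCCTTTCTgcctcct

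Among members without these letters at the annotated start were Rpl36a, Rps6 and Rpl22l1, the paralog of Rpl22.
Rpl36a, chrX:102059434-102059463, plus strand: ccgcctataaacttccgttgctgctctagc
Rps6, chr5:106420526-106420555, minus strand: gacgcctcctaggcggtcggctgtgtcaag
Rpl22l1, chr2:113683181-113683210, plus strand: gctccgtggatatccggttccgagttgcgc

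Of 67 promoters found for 66 of the member symbols, 35 held a tract (52.2%), against 3318 of all 33469 promoters in the table (9.91%). Among the other genes of translation it was held by 3 of 10 elongation factors, 8 of 36 initiation factors, 5 of 63 assembly factors and 0 of 28 genes that control ribosomal protein mRNAs. A match is a description of the annotated start and not of a site in use, and a missing match says only that these letters are not in this window.

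The deposited counts are unique molecular identifiers (UMIs), each 1 captured transcript, read from the 3′ end. The 3 libraries held 16728049, 22095390 and 19162530 UMIs, and 3379, 3694 and 3421 nuclei were kept, with medians of 3952, 4549.5 and 4726 UMIs, in the order low anxiety, high anxiety and urolithin A. That order holds for every set of 3 values below. Pairs of libraries shared 4 to 6 cell barcodes. No cell names came with the counts, so classes are rebuilt clusters named by markers, and D1 neuron or oligodendrocyte below stands for a cluster that is like that class; the members and the other translation genes were left out of the genes that formed the clusters. The 14 oligodendrocyte markers together made up 55798 to 56841 UMIs per 1000000 of the class (CPM) in oligodendrocytes and 157 to 224 CPM in D1 and D2 neurons, and the 12 matched markers of medium spiny neurons 1506 to 1663 CPM in oligodendrocytes and 17135 to 22302 CPM in those neurons. Of the oligodendrocyte markers, 13 or 14 had a UMI in the neurons of each library, Prr5l being at 0 in low anxiety D2 neurons and St18 in urolithin A D2 neurons.

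Over all nuclei, ribosomal protein transcripts took a larger share of UMIs in oligodendrocytes and microglia than in medium spiny neurons in all 3 libraries. In oligodendrocytes the members made up 0.379%, 0.501% and 0.465% of UMIs. The shares were 0.220%, 0.235% and 0.286% in D1 neurons and 0.214%, 0.220% and 0.255% in D2 neurons. Oligodendrocytes were above both of these neuron classes in every library, and the ranges do not overlap. Where no other class is named, neurons below are D1 and D2 neurons. Cholinergic interneurons (30, 35 and 61 nuclei) held 0.413%, 0.348% and 0.328%, above the oligodendrocytes in low anxiety. GABAergic interneurons held 0.281%, 0.269% and 0.278%, and glutamatergic neurons 0.196%, 0.214% and 0.223%. Eccentric medium spiny neurons, clustered apart from D1 and D2, held 0.270%, 0.278% and 0.282%.

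Microglia, the immune cells of the brain, held 0.399%, 0.494% and 0.422%. Astrocytes held 0.273%, 0.336% and 0.317%, and oligodendrocyte precursors 0.287%, 0.355% and 0.319%. Over all nuclei both lay between the neurons and the oligodendrocytes of their own library, and their ranges overlap each other. Among the glia and the D1 and D2 neurons, the order from low to high was D2, D1, astrocytes, precursors, oligodendrocytes and microglia in low anxiety. In the other libraries it was the same but for oligodendrocytes above microglia.

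**Figure D1:**
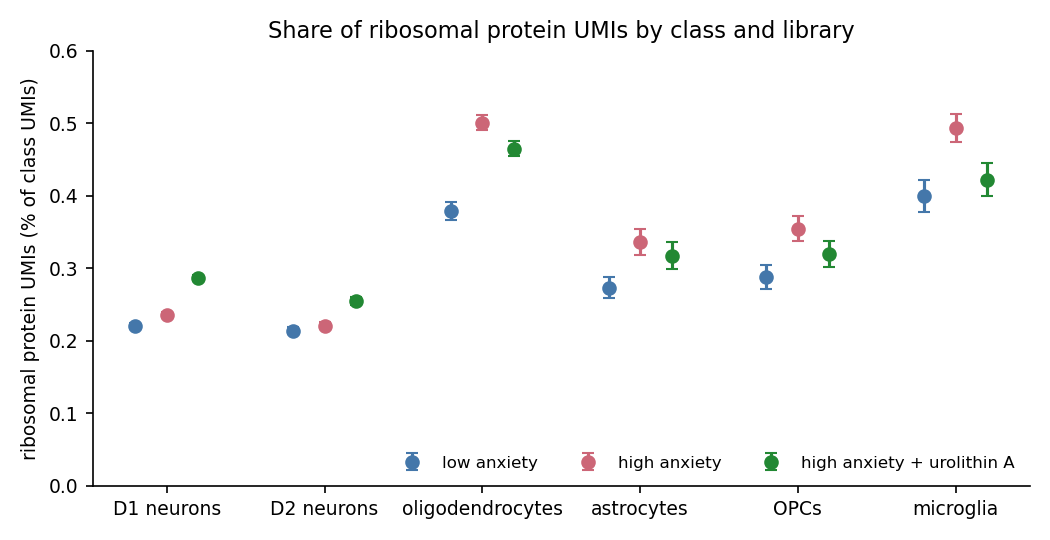
Share of UMIs from the 95 ribosomal protein features (y axis, percent of the class's UMIs) in 6 classes (x axis) and 3 libraries (colours); bars are exact binomial 95% intervals that cover counting error only. Oligodendrocytes and microglia sit above D1 and D2 neurons in each library, and the high anxiety library is the highest in each glial class while the urolithin A library is the highest in both neuron classes.

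The share and the number per nucleus run in opposite directions. A D1 neuron nucleus held 13.6, 18.8 and 19.9 ribosomal protein UMIs on average, and an oligodendrocyte nucleus 7.26, 11.9 and 10.3. The median D1 nucleus had 6017, 7665 and 6643 UMIs in all, and the median oligodendrocyte 1744, 2176.5 and 2061. Oligodendrocyte nuclei thus gave fewer ribosomal protein transcripts per nucleus out of a much smaller total, and every fold below is on the scale of the share.

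Within classes, nuclei with fewer UMIs had a higher ribosomal protein share. In D1 nuclei of 2000 to 4000 UMIs it was 0.281%, 0.337% and 0.461%, and in those of 8000 to 16000 UMIs 0.193%, 0.215% and 0.245%. In oligodendrocytes it was 0.406%, 0.526% and 0.487% from 1000 to 2000 UMIs and 0.361%, 0.496% and 0.476% from 2000 to 4000. Compared in the 1 range that all held, 2000 to 4000 UMIs, oligodendrocytes were at 1.29, 1.62 and 1.20 times the share of D1 and D2 neurons together. Over all nuclei the ratio was 1.74 (95% interval 1.68 to 1.80), 2.19 (2.13 to 2.24) and 1.70 (1.65 to 1.74), so it was smaller at matched depth in every library and still above 1. In the same range astrocytes were at 0.955, 1.09 and 0.731 times the neuron share, and precursors at 1.02, 1.18 and 0.816 times. Both were below the neurons in the urolithin A library (intervals 0.666 to 0.802 and 0.748 to 0.890). Microglia were at 1.40, 1.53 and 1.01 times, the last with an interval of 0.911 to 1.11. Only 22 to 105 D1 nuclei and 24 to 95 D2 nuclei per library fell in that range, against 177 to 440 oligodendrocytes.

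**Figure D2:**
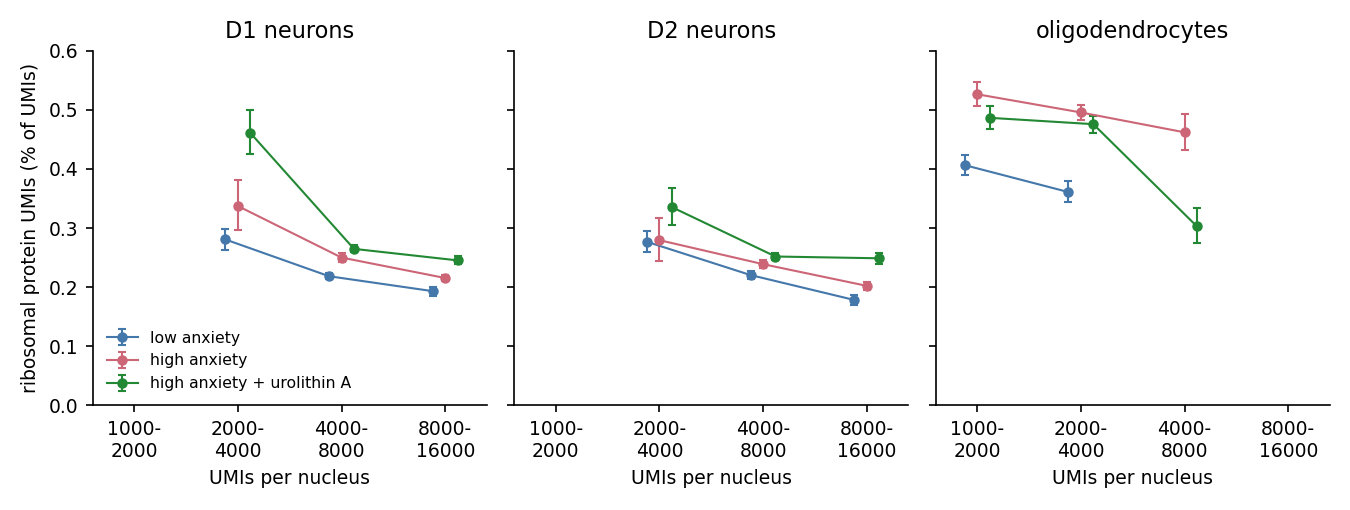
Ribosomal protein share (y axis, percent of UMIs) by UMIs per nucleus (x axis, ranges) in D1 neurons, D2 neurons and oligodendrocytes, 1 line per library, with exact binomial 95% intervals; ranges with under 20 nuclei are left out. The share falls from the shallowest to the deepest range drawn in every line, and in the range of 2000 to 4000 UMIs oligodendrocytes (0.361% to 0.496%) are above the neurons of their own library.

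Gene by gene, most of the ribosome was higher in oligodendrocytes than in medium spiny neurons. Of 95 members, 70 had enough UMIs to be tested. By edgeR's quasi-likelihood test over 12045 features, with the library as a block, 62 were higher, 1 was lower and 7 were not called. Of all features tested, 33.6% were called higher and 40.9% lower. The median log2 fold of the members was 0.88, against -0.10 for all features tested. In 55 members the 3 oligodendrocyte values all lay above the 3 neuron values, in 1 they all lay below, and in 14 they overlapped. Within the libraries 63, 67 and 66 of the 70 were above 0. Overlap and sign were not counted over all features, so these counts have no background beside them.

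The count was smaller at matched depth. Among nuclei of 2000 to 4000 UMIs, edgeR called 28 of 65 members higher and 3 lower, against 25.4% and 32.8% of all features, with a median of 0.52. Of the 63 members called over all nuclei, 29 were called there in the same direction and 7 had the opposite sign. When nuclei of at least 1000 UMIs were each thinned to 1000 UMIs, 55 of 66 were called higher and 1 lower. Thinning leaves the expected share of a nucleus as it was, so it does not match the classes by depth.

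**Figure D3:**
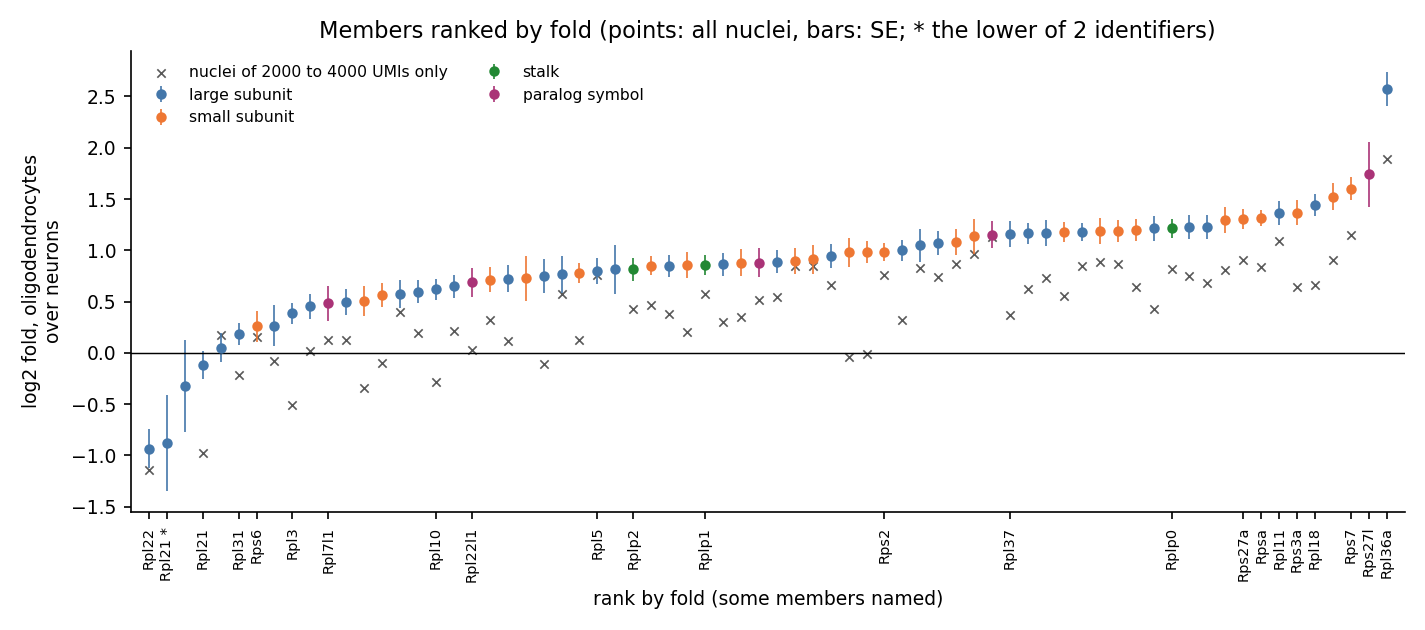
Log2 fold of oligodendrocytes over medium spiny neurons (y axis) for the 70 tested members ranked by fold (x axis); points are all nuclei with SE from the edgeR fit, coloured by role, and crosses are nuclei of 2000 to 4000 UMIs. Rpl22 is the lowest at -0.93 and Rpl36a the highest at 2.57, and nearly all crosses lie below their points.

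Over all nuclei the 3 stalk genes were called higher in oligodendrocytes. Rplp0, its scaffold, was at 42.5, 48.3 and 55.7 CPM in neurons and 101, 127 and 111 CPM in oligodendrocytes, a log2 fold of 1.21 ± 0.0929 (SE; edgeR adjusted p = 4.58e-19). Rplp1, an acidic protein that binds translation factors, was at 57.1, 66.2 and 93.2 CPM against 114, 141 and 131 CPM (0.86 ± 0.0958, edgeR adjusted p = 2.03e-12). Its partner Rplp2 was at 32.6, 41.2 and 43.1 CPM against 51.4, 76.9 and 73.0 CPM (0.82 ± 0.114, edgeR adjusted p = 2.77e-09). For all of the stalk genes the oligodendrocyte and neuron values did not overlap. In nuclei of 2000 to 4000 UMIs Rplp2 was at 0.43 and no longer called (edgeR adjusted p = 0.159), while Rplp0 and Rplp1 still were.

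In the small subunit, 25 of 26 tested members were higher and 0 lower. Rps7, a protein that also binds Mdm2, was at 40.1, 30.6 and 46.5 CPM in neurons and 112, 128 and 108 CPM in oligodendrocytes, the highest fold of the subunit (1.60 ± 0.112, edgeR adjusted p = 7.71e-21). Rps3a was at 22.7, 27.8 and 44.7 CPM against 61.8, 96.2 and 80.1 CPM (1.37 ± 0.122, edgeR adjusted p = 4.01e-16). In both of these the lowest oligodendrocyte library was above the highest neuron library.

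Rpsa, which is also known as the laminin receptor, was at 52.3, 60.1 and 64.1 CPM in neurons and 139, 154 and 145 CPM in oligodendrocytes (1.31 ± 0.0799, edgeR adjusted p = 6.87e-24). Rps27a, made as a fusion with ubiquitin, was at 42.0, 37.4 and 52.8 CPM against 108, 102 and 113 CPM (1.31 ± 0.0992, edgeR adjusted p = 3.22e-19). Rps2, at the mRNA entry channel, was at 79.3, 63.0 and 74.7 CPM against 116, 149 and 144 CPM (0.99 ± 0.0861, edgeR adjusted p = 1.55e-16). The mean of Rps2 in neurons was 72.3 ± 8.38 CPM (SD, n = 3 libraries). UMI levels are not scaled to transcript length or to how well a 3′ end is captured, so they are not compared between genes.

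Rps19, the gene most often mutated in Diamond-Blackfan anaemia, was higher by 0.86 (edgeR adjusted p = 1.62e-08), Rps4x, an X-linked member, by 0.98, Rps27, a zinc finger protein, by 0.91 and Rps25, which some viral mRNAs need for initiation, by 0.73. In nuclei of 2000 to 4000 UMIs Rps4x turned to -0.038 (edgeR adjusted p = 0.924) and Rps19 was at 0.21 and no longer called (edgeR adjusted p = 0.557). The member of the small subunit that was not called was Rps6, the substrate of the S6 kinases. It was at 32.1, 29.8 and 34.4 CPM in neurons and 20.0, 43.5 and 44.0 CPM in oligodendrocytes (0.26, edgeR adjusted p = 0.115). The low anxiety oligodendrocytes were below, and the other oligodendrocytes above, all neuron libraries.

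In the large subunit, 29 of 36 tested members were higher and 1 was lower. Rpl36a, an X-linked member, stood at the top, with 8.70, 7.70 and 10.8 CPM in neurons and 46.6, 48.9 and 65.3 CPM in oligodendrocytes (2.57 ± 0.169, edgeR adjusted p = 3.44e-22). Rpl18 was at 32.1, 30.5 and 37.6 CPM against 78.0, 89.2 and 99.5 CPM (1.44 ± 0.106, edgeR adjusted p = 9.23e-20). Rpl11, which binds Mdm2 together with Rpl5 when assembly is disturbed, was at 28.1, 30.7 and 36.5 CPM against 72.3, 89.8 and 78.9 CPM (1.36 ± 0.118, edgeR adjusted p = 8.54e-17). These members had no overlap between the classes.

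Rpl5, the partner of Rpl11 on the 5S RNA, was at 20.7, 31.9 and 32.6 CPM in neurons and 32.3, 62.3 and 51.7 CPM in oligodendrocytes (0.80 ± 0.131, edgeR adjusted p = 1.64e-07), and the low anxiety oligodendrocytes overlapped the neurons. Rpl37 was at 34.2, 26.8 and 35.1 CPM against 58.0, 86.5 and 59.5 CPM (1.16, edgeR adjusted p = 2.62e-12), with no overlap, and at 0.37 it was not called in nuclei of 2000 to 4000 UMIs (edgeR adjusted p = 0.254). Rpl10, which joins the large subunit late, was higher by 0.62 and Rpl39, at the exit of the peptide tunnel, by 0.81. At that matched depth Rpl10 turned to -0.28 (edgeR adjusted p = 0.264). Rpl3, at the peptidyl transferase centre, had the lowest fold among the members called higher. It was at 43.4, 55.9 and 66.3 CPM against 58.0, 79.0 and 76.9 CPM (0.38 ± 0.105, edgeR adjusted p = 0.00089), the values overlapped, and in nuclei of 2000 to 4000 UMIs it was called lower, at -0.50 (edgeR adjusted p = 0.0419).

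Rpl22 and its paralog Rpl22l1 went in opposite directions. Rpl22, which binds RNA and is not essential for the ribosome's function, was at 33.6, 27.1 and 29.7 CPM in neurons and 11.4, 16.1 and 17.5 CPM in oligodendrocytes. Its mean was 30.1 ± 3.28 CPM in neurons and 15 ± 3.17 CPM in oligodendrocytes (SD, n = 3 libraries), and it was the member called lower (-0.93 ± 0.191, edgeR adjusted p = 1.37e-05). Rpl22l1, which can take its place in the ribosome, was at 25.7, 26.1 and 32.0 CPM against 45.7, 45.1 and 44.6 CPM (0.69 ± 0.141, edgeR adjusted p = 1.32e-05). Neither gene's values overlapped between the classes. In nuclei of 2000 to 4000 UMIs Rpl22 was still called lower, at -1.14 (edgeR adjusted p = 0.0233), while Rpl22l1 was at 0.03 (edgeR adjusted p = 0.941). A second identifier with the symbol Rpl22, at 3.06, 4.18 and 4.76 CPM in neurons, was not called (-0.33, edgeR adjusted p = 0.518).

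The other members of the large subunit that were not called were the 2 identifiers of Rpl21, Rpl31, Rpl35a and Rpl10a. The main Rpl21 was at 42.0, 51.4 and 62.9 CPM in neurons and 32.3, 66.1 and 40.7 CPM in oligodendrocytes (-0.12, edgeR adjusted p = 0.438). The other was at -0.88 (edgeR adjusted p = 0.0823). In nuclei of 2000 to 4000 UMIs the main one was called lower, at -0.98 (edgeR adjusted p = 0.000536). Rpl31 was at 42.3, 48.7 and 53.8 CPM against 50.4, 59.1 and 56.2 CPM (0.18, edgeR adjusted p = 0.129), Rpl35a was at 0.05 (edgeR adjusted p = 0.749) and Rpl10a at 0.27 (edgeR adjusted p = 0.223). Rpl31, Rpl35a and Rpl22 hold a tract at the start and Rps6 does not. Over the tested members with a promoter, where both identifiers of Rpl21 and of Rpl22 carry the promoter of their symbol, the 32 with a tract had a median log2 fold of 0.96 (-0.93 to 1.60) and the 27 without it 0.82 (-0.88 to 2.57), so the ranges overlap.

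**Figure D4:**
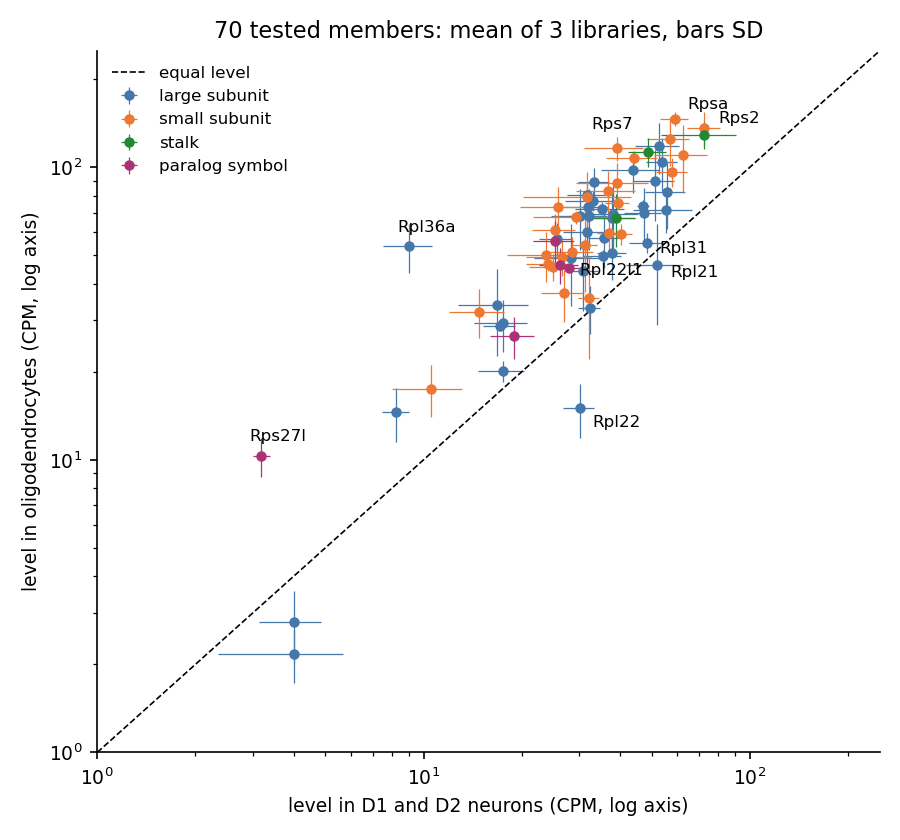
Mean CPM in D1 and D2 neurons together (x axis, log scale) against mean CPM in oligodendrocytes (y axis, log scale) for the 70 tested members, coloured by role, with bars of 1 SD over 3 libraries and a dashed line of equal level. Most members lie above the line, Rpl36a and Rps27l among the farthest, and Rpl22 lies below it at 30.1 and 15 CPM.

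Of the 21 features with a paralog symbol, 5 were tested and all 5 were higher. Rps27l, a stress-induced paralog of Rps27, was at 3.31, 2.97 and 3.28 CPM in neurons and 8.56, 10.8 and 11.6 CPM in oligodendrocytes (1.74 ± 0.315, edgeR adjusted p = 1.41e-06). Rpl30l2 was higher by 1.15 (edgeR adjusted p = 5.47e-12), Rps10l1 by 0.88 (edgeR adjusted p = 4.79e-08) and Rpl7l1 by 0.48 (edgeR adjusted p = 0.00866), beside Rpl22l1. At matched depth, 2000 to 4000 UMIs, Rps10l1 (0.52, edgeR adjusted p = 0.120) and Rpl7l1 (0.13, edgeR adjusted p = 0.805) were not called. Rpl3l and Rpl39l, known from muscle and testis, had 8 and 4 UMIs in all kept nuclei and Rpl10l had 19. Of the others, Rps15al4 had 88, Rpl31l4 35, Rpl37l1 33, Rps4y2 32, Rps18l1 11, Rps15al2 and Rps19l1 10 each, Rps12l3 8, Rps12l4 5 and Rpl27-l1 1, while Rpl30l1, Rpl36al and Rps12l2 had 0. Rpl38, Rps20 and a second identifier of Rps6 also had 0 UMIs, which makes 6 members without a count.

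Names limit this set. Of 77 ribosomal proteins by their usual symbols, 69 were matched, and Rpl7, Rpl8, Rpl27a, Rpl36, Rpl37a, Rpl41, Rps18 and Rps26 were not. The 61 features with -ps in the name held 15091 UMIs, 8.97% of the UMIs of members and such names together. Those with at least 1000 UMIs, chosen after their values were seen, are Rpl8-ps7, Rpl9-ps30, Rps20-ps10 and Rpl38-ps9. Rpl38-ps9 was at 16.3, 20.7 and 26.7 CPM in neurons and 47.6, 43.5 and 44.0 CPM in oligodendrocytes (1.07, edgeR adjusted p = 4.52e-09) and Rps20-ps10 was higher by 0.93 (edgeR adjusted p = 1.99e-08), while Rpl38 and Rps20 themselves had 0 UMIs. Rpl9-ps30 was higher by 1.12 (edgeR adjusted p = 2.44e-18) and Rpl8-ps7 by 0.49 (edgeR adjusted p = 1.52e-06). Ribosomal protein genes have many near-identical copies, and the split of reads between a gene and its copy is uncertain for all members.

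The rest of the translation machinery moved less evenly. Of 2 tested genes for other proteins of the ribosome or fused to it, 1 was higher and 1, at 0.02, was not called. The higher one was Rack1, the scaffold protein on the small subunit. It was at 21.6, 27.2 and 27.3 CPM in neurons and 54.2, 65.0 and 65.9 CPM in oligodendrocytes (1.29, edgeR adjusted p = 1.32e-14). Of 9 elongation factors 7 were higher and 1 lower. Tpt1 was higher by 1.19 and Eef2, which moves the ribosome along, by 1.10. Eef1a2, the form of the tRNA carrier known from neurons and muscle, was lower, at 134, 125 and 130 CPM in neurons and 29.5, 15.05 and 15.5 CPM in oligodendrocytes (-2.78, edgeR adjusted p = 1.39e-27).

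Of 39 initiation factors 26 were higher and 2 lower, with Eif4g2 at 1.58, Eif6, which keeps the subunits apart, at 1.46, and the cap-binding Eif4e3 at -1.01 and the poly(A)-binding Pabpc4 at -1.26. Of 65 assembly factors 14 were higher and 19 lower, with nucleolin (Ncl) at 1.91 and Ebna1bp2 at 1.68, and Utp4 at -1.40 and Mdn1, which matures the large subunit, at -1.49. Of 28 genes that control ribosomal protein mRNAs 7 were higher and 10 lower, from Larp1b at 1.86 and Lamtor5 at 0.74 to Tial1 at -1.05 and Rragd, a GTPase that activates mTOR, at -3.61. Of 71 mitochondrial ribosomal proteins 24 were higher and 13 lower, from Mrps6 at 1.51 and Mrpl48 at 1.11 to Mrps16 at -1.15 and Mrpl38 at -1.21. Higher and lower in these lists are edgeR calls from the same fit, where 33.6% of all features were higher and 40.9% lower. The share of higher calls was near that background for mitochondrial ribosomal proteins and below it for assembly factors and control genes.

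Lists of RNA known from the cytoplasm and mitochondria were also mostly higher in oligodendrocytes. Of 25 short abundant mRNAs of the cytoplasm 19 were higher and 2 lower, with the tubulin Tuba1a at 2.47, Calm2 at -0.28 and Tubb2a at -0.73. Of 13 genes of the mitochondrial genome 11 were higher and 0 lower. Mitochondrial UMIs made up 1.90%, 1.76% and 1.56% in oligodendrocytes and 0.839%, 1.00% and 1.13% in D1 neurons. The part of cytoplasmic RNA in the difference between the classes was not tested.

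Over all nuclei most members were higher in microglia as well. In astrocytes and precursors the share called higher was near that of all features. In microglia 55 of 70 members were higher than in medium spiny neurons and 1 lower by edgeR, against 25.6% and 35.9% of all features, with a median of 0.92. Rps24 was higher by 1.55 (edgeR adjusted p = 1.05e-09), Rpl35 by 1.52 (edgeR adjusted p = 3.26e-11) and Rpl36a by 1.49 (edgeR adjusted p = 0.000259). The member called lower was the second identifier of Rpl21, whose microglial counts were near 0. In astrocytes 22 were higher and 1 lower (27.6% and 26.8% of all features), the lower one again being Rpl22, at -1.41 (edgeR adjusted p = 0.000602). In oligodendrocyte precursors 19 were higher and 0 lower (26.5% and 23% of all features), and those counts rest on the fewest nuclei, 134 to 140 per library.

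Rpl13 set precursors apart. It was at 220, 212 and 143 CPM in precursors, while oligodendrocytes stood at 66.6, 116 and 87.9 CPM, and D1 neurons at 46.5, 49.6 and 60.7 CPM. Each precursor library was above every library of those classes. Against medium spiny neurons the log2 fold in precursors was 1.91 ± 0.149 (edgeR adjusted p = 2.62e-18).

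Oligodendrocytes were also tested against the mean of the other glia, where 32 of 70 members were higher and 0 lower by edgeR, against 23.3% and 26.8% of all features, with a median of 0.36. Rpl36a again had a high fold, 1.53 (edgeR adjusted p = 7.69e-09), and Rps7 was higher by 1.08 (edgeR adjusted p = 2.71e-09). Between D1 and D2 neurons edgeR called 0 members, against 4.62% of all features higher in D1 and 2.62% lower. At an unadjusted p under 0.05 there were 7, all higher in D1, and the lowest adjusted p by edgeR was 0.0698, for Rps2. No other tool was run on that contrast. The median was 0.11, and 61 of 70 members were above 0. The counts at an unadjusted p and above 0 were not made over all features. In the urolithin A library the D1 sum includes 10 nuclei that held 15% of its ribosomal protein UMIs.

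High anxiety against low anxiety asks how the accumbens of rats with different anxiety behaviour differs. The libraries are 1 a group, so what follows are ratios of libraries with 95% intervals for counting error and no test. Oligodendrocytes showed the wider gap. Their ribosomal protein share was 1.32 times as high in the high anxiety library (1.27 to 1.37), and 40 of 63 measured members were at least 25% higher and 1 was lower by the same fold, a ratio of 0.8 or under, where 14.2% and 11.7% of all measured features were. The median log2 ratio was 0.39 against 0.02 for all features.

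Rps6 had the highest ratio in oligodendrocytes, with 20.0, 43.5 and 44.0 CPM (log2 ratio 1.12, interval 0.42 to 1.89). Rpl21 followed, with 32.3, 66.1 and 40.7 CPM (1.03, 0.47 to 1.62), and Rpl27 with 22.8, 45.1 and 33.6 CPM (0.98). Rpl5 was at 0.95. For these members the low anxiety library was the lowest of all libraries. At the other end were Rpl7l1 at -0.34, Rpl4, a protein of the exit tunnel, at -0.11, Rps27a at -0.09 and Rpl22l1 at -0.02.

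An unnamed cluster in which the oligodendrocyte marker list was the highest was kept out of the class. It held 0.360%, 0.480% and 0.413%, also highest in the high anxiety library. The share was highest there too in both larger oligodendrocyte clusters, at 0.401%, 0.525% and 0.488% in the first and 0.257%, 0.370% and 0.318% in the second. A small oligodendrocyte cluster had 6, 29 and 0 nuclei. Oligodendrocyte nuclei were deeper in the high anxiety library, and within 2000 to 4000 UMIs the ratio was 1.37.

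Medium spiny neurons differed less between these libraries. The share was 1.07 times as high in D1 neurons of high anxiety (1.04 to 1.10) and 1.03 times in D2 neurons (0.999 to 1.06). In D1 neurons 18 of 67 measured members were at least 25% higher and 8 lower (10% and 14.3% of all features), and in D2 neurons 10 and 9 of 65 (9.91% and 14.7%). The medians were 0.10 and 0.08, against -0.02 for all features in both. In D1 neurons Rps25 was at 7.003, 12.3 and 12.7 CPM (0.81, 0.19 to 1.46), followed by Rpl5, Rps15 and Rps13 at 0.60, 0.56 and 0.56. Rpl37 was at 38.2, 25.4 and 39.5 CPM (-0.59, -0.92 to -0.26), lower in high anxiety than in both other libraries, and Rpl36a, Rpl10a and Rps10l1 were at -0.55, -0.51 and -0.48.

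In D2 neurons Rps15, a protein of the decoding region, was at 17.4, 35.7 and 30.03 CPM (1.04, 0.59 to 1.501). Rpl27 was at 0.68, Rpl5 at 0.66, with 18.3, 28.9 and 37.2 CPM, and Rpl13a, a member of the complex that silences inflammatory mRNAs, at 0.48. Rpl5 was also among the 4 highest in D1 neurons and oligodendrocytes, but with nuclei thinned to 1000 UMIs its value in D2 neurons turned to -0.16. Rps7 was the lowest, with 41.4, 29.4 and 44.3 CPM (-0.50), beside Rpl7l1 and Rpl22 at -0.46 and Rpl12 at -0.42. Of 62 members measured in D1, D2 and oligodendrocytes, 32 were above 0 in all of them and 3 (Rpl4, Rpl7l1 and Rps27a) below 0. How often all features share a sign was not counted, and the classes of a group come from the same library.

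In the other glia the share was higher in high anxiety by 1.24 times in microglia (1.16 to 1.32), 1.23 in astrocytes (1.14 to 1.33) and 1.23 in precursors (1.14 to 1.33). Only 15 members were measured in microglia, of which 9 were at least 25% higher and 0 lower (23.7% and 12.5% of all features), Rpl23 leading at 0.76. Astrocytes had 3 measured members, with Rpl19 at 0.71 and an interval from -0.04 to 1.48.

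**Figure D5:**
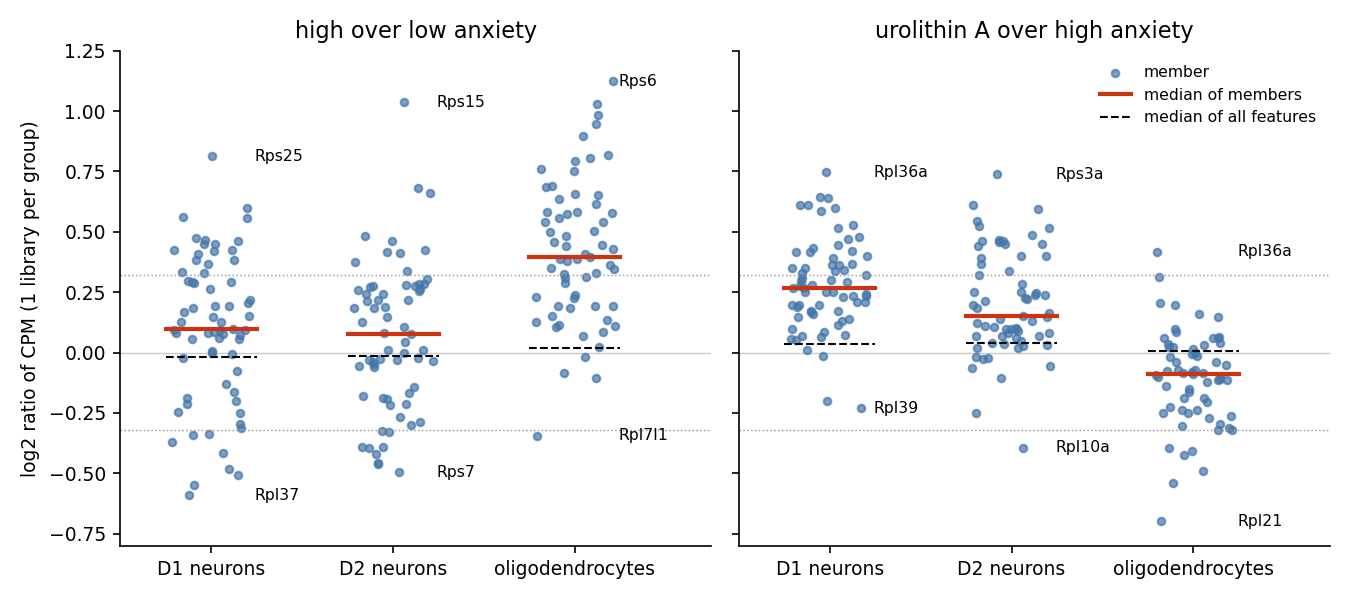
Log2 ratio of CPM between libraries (y axis) for each measured member in D1 neurons, D2 neurons and oligodendrocytes (x axis), for high over low anxiety (left) and urolithin A over high anxiety (right), with 1 library per group. Solid bars are medians of members, dashed bars medians of all measured features and dotted lines ratios of 25% higher and of 0.8; oligodendrocytes have the highest median at left (0.39) and the lowest at right (-0.09).

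The other translation lists were mixed. In oligodendrocytes of high over low anxiety, 4 of 7 elongation factors were at least 25% higher and 0 lower, 9 of 31 initiation factors higher and 2 lower, and 5 of 29 assembly factors higher and 3 lower. Short abundant mRNAs of the cytoplasm were split, 5 of 24 higher and 4 lower. Beside the 14.2% and 11.7% of all features, the assembly factors are near the background. In D1 neurons assembly factors were 4 higher and 15 lower of 60, the control genes 0 and 7 of 27, and mitochondrial ribosomal proteins 4 and 23 of 65, while 8 of 13 genes of the mitochondrial genome were higher and 0 lower, where 10% and 14.3% of all features were.

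Urolithin A against high anxiety asks what the treatment changes in rats of the same anxiety group. Here the shares of neurons and oligodendrocytes went in opposite directions, and the gap between them was narrower in the urolithin A library. The share was 1.22 times as high in D1 neurons of the urolithin A library (1.19 to 1.247) and 1.15 times in D2 neurons (1.12 to 1.19), and it was 0.929 times in oligodendrocytes (0.900 to 0.958), 0.855 times in microglia (0.7995 to 0.913), 0.900 times in precursors (0.835 to 0.969) and 0.944 times in astrocytes (0.871 to 1.02).

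In D1 neurons 26 of 67 members were at least 25% higher and 0 lower (12.3% and 6.01% of all features), with a median of 0.27 against 0.04. A few nuclei weigh on this. In the urolithin A library 10 D1 nuclei had over 1.5% ribosomal protein UMIs and held 2293 of the class's 15281 (15%). In 1 of them 1285 of 16248 UMIs came from 69 members. Such nuclei numbered 3 in low anxiety and 4 in high anxiety, with 1.41% and 0.797% of the class's ribosomal protein UMIs. In the 10 nuclei short abundant mRNAs made up 4.08% of UMIs, against 0.351% in the class, and mitochondrial UMIs 2.55%. All of these nuclei were in the second of the 2 D1 clusters.

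Without those nuclei, a limit chosen after the data were seen, the D1 ratio was 1.05, and 8 of 67 members were at least 25% higher and 3 lower (10.9% and 6.39% of all features), with a median of 0.08. In the larger D1 cluster alone the ratio was 1.04. The median share of a D1 nucleus, which a few nuclei do not move, was 0.218%, 0.226% and 0.241%. Mitochondrial UMIs in D1 neurons were also highest in the urolithin A library, oligodendrocyte markers were at 157, 204 and 224 CPM, all 14 of them with a UMI in every library, and 6 of 25 short abundant mRNAs were higher in urolithin A and 0 lower. Of 13 genes of the mitochondrial genome 1 was higher and 4 were lower. Their part in the ratio was not tested.

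In D1 neurons over all nuclei Rpl36a had the highest ratio, with 9.97, 6.81 and 11.4 CPM (0.75, 0.13 to 1.38). Rps3a was at 23.3, 30.1 and 47.0 CPM (0.64, 0.35 to 0.94), highest in urolithin A, and Rpl37 and Rps7 were at 0.64 and 0.61. Each of Rpl36a, Rpl37 and Rps7 was lowest in the high anxiety library. Rpl39 and Rpl5 were the lowest, at -0.23 and -0.20, and Rps6 was at 0.01.

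In D2 neurons 19 of 65 were higher and 1 lower (13.8% and 6.36% of all features), with a median of 0.15 against 0.04, and without nuclei over 1.5% the ratio of shares was 1.12. Rps3a was again high, with 21.7, 24.7 and 41.2 CPM (0.74, 0.35 to 1.13), beside Rpl30l2 at 0.61, Rps7 at 0.59 and Rps6 at 0.54, which turned to -0.33 with nuclei thinned to 1000 UMIs. Rpl10a was at -0.39 and Rps15 at -0.25. In the same D2 neurons 7 of 11 genes of the mitochondrial genome and 8 of 25 short abundant mRNAs were higher in urolithin A and 0 lower. Mitochondrial UMIs made up 0.687%, 0.849% and 1.09%, and the oligodendrocyte markers were at 158, 194 and 198 CPM. Their part in the D2 ratio was not tested.

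In oligodendrocytes 1 of 63 was higher and 6 lower (7.77% and 8.5% of all features), near the background, with a median of -0.09 against 0.00. Rpl21 was at -0.70 (-1.16 to -0.25), Rpl37 at -0.54 (-0.93 to -0.16), Rps9 at -0.49 (-0.91 to -0.08) and Rpl27 at -0.43, and Rpl36a, Rpl6, Rpl14 and Rpl35a were the highest, at 0.42, 0.31, 0.21 and 0.20. Rpl21, Rpl37, Rps9 and Rpl27 were also among the members above 0.5 in high over low anxiety, and the high anxiety library is in both ratios.

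In microglia 0 of 15 members were higher and 7 lower (9.1% and 19% of all features), Rps16 being the lowest at -0.79 (-1.51 to -0.10). In precursors Rpl13 was at -0.56 (-1.06 to -0.07). Among the other lists in D1 neurons, 19 of 65 mitochondrial ribosomal proteins were higher in urolithin A and 3 lower, 6 of 60 assembly factors higher and 2 lower, 3 of 38 initiation factors higher and 0 lower, and 2 of 9 elongation factors higher and 0 lower. Beside the 12.3% and 6.01% of all features, the shares of assembly and initiation factors that were higher are below the background.

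Urolithin A over low anxiety, which shares a library with each comparison above, was above 1 in all of the classes compared in depth. The share was 1.30 times as high in D1 neurons (1.27 to 1.34), 1.19 in D2 neurons (1.15 to 1.23) and 1.23 in oligodendrocytes (1.18 to 1.28). At least 25% higher were 40 of 67, 28 of 65 and 31 of 63 members, with 1 lower in each, where 12.8%, 13.9% and 13.9% of all features were higher and 9.75%, 10.4% and 11.4% lower. Over all nuclei Rps3a at 1.01 and Rplp1 at 0.88, with 55.2, 67.6 and 102 CPM, were highest in D1 neurons. Rpl39 at -0.40 and Rpl10a at -0.31 were the lowest there. Without nuclei over 1.5% the D1 ratio was 1.13, with 18 members higher and 3 lower (11.7% and 10.4% of all features). The median log2 ratio of D1 members was then 0.19, against 0.39 over all nuclei.

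Members did not all share 1 profile. Over the 18 sums of 6 classes and 3 libraries, which share libraries, the profile of a member was set against the mean of the others. Rpl23, Rps3a and Rps3 followed it most closely (Pearson r 0.971, 0.966 and 0.955), and Rpl21, Rps6, Rpl31, Rpl4, Rpl23a and Rpl35a least (0.0637, 0.122, 0.300, 0.373, 0.385 and 0.411). Rpl21, Rps6, Rpl31 and Rpl35a are also among the members not called between oligodendrocytes and neurons. In the RefSeq annotation Rpl31 overlaps Tbc1d8 and Rps6 overlaps Dennd4c. Rpl19 and Rpl35, with r of 0.939 and 0.928, each overlap a protein-coding gene, and Rpl21, Rpl4, Rpl23a and Rpl35a overlap none. A link between overlap and r was not tested. The sources used here do not say whether counting used the strand, so reads of a gene and its overlapping neighbour cannot be told apart.

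The genes most like the members were found among 1220 other features with enough UMIs in every class. The 10 with the highest Pearson r to the members' mean over the 18 sums were Osbpl1a (0.935), Gna12 (0.929), Rnf13 (0.923), Tmed2 (0.910), Mta3 (0.906), Dnm2 (0.905), Tmbim6 (0.900), Sypl1 (0.899), Baz2b (0.898) and Dnajb6 (0.894). The median r of all 1220 was 0.215. The order of the members by level was nearly the same in D1 and D2 neurons (Pearson r 0.979 over 62 members) and less so between D1 neurons and oligodendrocytes (0.805) or microglia (0.779). These are descriptions across points and genes that are not independent.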

How the data were processed

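Per the file headers, Cell Ranger 7.1.0 made the deposited matrices, which hold raw counts of UMIs per feature and nucleus. The build was mRatBN7.2, per the submitters' processing notes. Intron counting, strand use and any removal of free RNA are not given in the sources used here, and the lowest barcode held 506 to 513 UMIs.

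Nuclei under 500 genes or over 5% mitochondrial UMIs were left out, and the highest Scrublet scores (0.8% per 1000 nuclei, 97, 116 and 99 nuclei) were removed with scanpy 1.11.5. From 2000 variable genes, 30 principal components and 15 neighbours, Leiden clustering (leidenalg 0.10.2, igraph 0.11.9, resolution 1, seed 7) gave 26 clusters, named from marker lists. Those that met no list's rule stayed unnamed. D1 neurons came from 2 clusters, D2 neurons from 2 and oligodendrocytes from 3.

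UMIs were summed per class and library, and CPM is UMIs per 1000000 of that sum. Class contrasts used edgeR 4.0.16 (R 4.3.3) on 18 sums of 6 classes and 3 libraries, with the library as a block, class totals as scaling and features of at least 100 UMIs. The block pairs classes from the same pooled rats. A call is a Benjamini-Hochberg adjusted p under 0.05 over 12045 features, and a test over libraries measures the spread between 3 pools of different groups. On simulated counts, 80.0% of features changed by a log2 fold of 1 and 97.0% of those changed by 2 were recovered among 11969 features for the oligodendrocyte contrast. In that simulation all classes shared the same mean apart from the changed features, with a fixed dispersion and no library effect. Recovery in the real contrast can differ. Between groups, features with at least 100 UMIs over 3 libraries in a class were measured, and a feature counted as higher or lower past 1.25-fold, and ratios of CPM have exact conditional 95% intervals (Clopper-Pearson, scipy 1.17.1). All intervals cover counting error only.

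Named members were the highest and lowest by level, by fold and by ratio in each class and comparison, paralog symbols, and a set of names such as Rplp0, Rps6 and Rpl5. Some genes picked by these rules are not reported here. The members, the gene lists and these rules were chosen with earlier results of these data known. A list of long nuclear RNAs matched 0 symbols and was not used. Alternatives were TMM, DESeq2 1.42.0, other filters and nuclei, and each library left out. Sequences are from RefSeq, build GRCr8, matched by symbol.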

Additional observations from a re-analysis of the deposited data

Results flagged for a closer look

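The values below were picked out because 2 classes went opposite ways between the same libraries, both at least 25% higher or at a ratio of 0.8 or under, or with intervals of the summed share on opposite sides of 1. Whether the classes differ was not tested, since each group is 1 library.

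In high over low anxiety, Rpl37 was at -0.59 (log2 ratio, -0.92 to -0.26) in D1 neurons and 0.58 (0.14 to 1.03) in oligodendrocytes. Rps2 was at -0.34 (-0.55 to -0.12) in D1 neurons and -0.32 (-0.59 to -0.06) in D2 neurons, and at 0.36 (0.05 to 0.68) in oligodendrocytes. Rpl12 was at -0.42 (-0.80 to -0.04) in D2 neurons and 0.61 (0.13 to 1.12) in oligodendrocytes.

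In urolithin A over high anxiety, Rpl37 was at 0.64 (0.32 to 0.96) in D1 neurons and -0.54 (-0.93 to -0.16) in oligodendrocytes, the opposite of its order in the first comparison, which shares the high anxiety library. Rpl13, the member with the high level in oligodendrocyte precursors, was at 0.45 (0.14 to 0.75) in D2 neurons and -0.39 (-0.72 to -0.08) in oligodendrocytes. Rpl21 was at 0.48 (0.19 to 0.78) in D2 neurons and -0.70 (-1.16 to -0.25) in oligodendrocytes.

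For the summed share of the members, the ratio of urolithin A to high anxiety was 1.22 in D1 neurons and 1.15 in D2 neurons, against 0.929 in oligodendrocytes and 0.855 in microglia. The D1 ratio was 1.05 without the nuclei of over 1.5% ribosomal protein UMIs.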

How the results depend on the processing

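In the contrast of oligodendrocytes with neurons, the count of 62 members called higher became 28, and the median log2 fold 0.52, among nuclei of 2000 to 4000 UMIs. Leaving out each library in turn gave 56 to 63 calls and medians of 0.76 to 0.96. Without the library as a replicate block the count was 62 and the median 0.89. No paired analysis was possible between groups because each group is 1 library. In nuclei of 2000 to 4000 UMIs among the members reported here the sign turned for Rps12 (-0.35), Rps4x (-0.038), Rpl10 (-0.28), Rps29 (-0.011), Rpl3 (-0.50) and Rpl23a (-0.11). The cause was not tested, and that range holds few neurons.

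Between groups the summed ratio of high over low anxiety in D1 neurons was 1.01 with nuclei thinned to 1000 UMIs and 1.20 from 2000 to 4000 UMIs, in D2 neurons 0.996 thinned, and in oligodendrocytes 1.37 from 2000 to 4000 UMIs and 1.45 under stricter limits on nuclei (1000 genes or more, mitochondrial UMIs up to 1%). For urolithin A over high anxiety it was 1.37, 1.09, 1.04 and 1.05 in D1 neurons (2000 to 4000 UMIs, the stricter nuclei, the largest cluster, and without nuclei over 1.5%), 1.20 and 1.19 in D2 neurons (2000 to 4000 UMIs, the largest cluster) and 0.960 in oligodendrocytes (2000 to 4000 UMIs). For urolithin A over low anxiety it was 1.21, 1.64, 1.16, 1.14 and 1.13 in D1 neurons (thinned, 2000 to 4000 UMIs, stricter, largest, without nuclei over 1.5%), and 1.32 and 1.37 in oligodendrocytes (2000 to 4000 UMIs, stricter). With thinned nuclei in D2 neurons Rpl5 turned to -0.16 in high over low anxiety and Rps6 to -0.33 in urolithin A over high anxiety. The removal of nuclei over 1.5% and the addition of the unnamed oligodendrocyte cluster were chosen after seeing the data. With 1 library per group, depth limits only counting error, and the spread between rats is unknown.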
